A study of Mus musculus with 3 samples.

Results

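Chromatin remodeller genes were taken from the mouse GENCODE M21 annotation as the protein-coding genes whose symbol begins with Smarc, Arid, Ino80 or Actl6, or consists of Chd or Baz followed by a digit. This gave 44 of 21951 protein-coding genes. The rule goes by symbol alone, so the set also holds ARID genes, such as Arid3a and Arid4a, whose proteins bind DNA outside the BAF complex. Below, remodeller means any gene of this set. The study measured H3K36me3, a histone mark left by Setd2 over transcribed gene bodies, with ChIP-seq of regulatory T (Treg) cells. Treg cells were sorted as CD3+CD4+Foxp3-YFP+ lymphocytes of adult C57BL/6 mice (genotype Foxp3-YFP, line Foxp3Cre-YFP, in which Foxp3 drives the Cre-YFP fusion) at steady state. Cells of 7 male and 7 female mice were pooled, and splenic and large intestinal (LI) cells gave 1 library each. An input library of splenic Treg chromatin was not analysed here. All of these mice carried the Foxp3Cre-YFP allele and none of the libraries used came from Setd2-deficient cells. With 1 library per tissue there was no replicate and no test, and every interval given below covers counting error only.

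Chromatin remodellers use ATP to slide, eject or exchange nucleosomes, which opens or closes DNA for transcription factors and the transcription machinery. They fall into families named after their ATPase: SWI/SNF (the BAF and PBAF complexes), ISWI, CHD and INO80. BAF and the CHD4-containing NuRD complex are known for setting T cell lineage choices, and BAF is needed for full Foxp3 expression in Treg cells. H3K36me3 lies over the transcribed part of active genes and increases from the 5' end to the 3' end.

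The deposited values were mean coverage per merged peak in RPKM, read coverage normalised for length and sequencing depth. Each column was scaled to its total over all 120910 peaks, and the peaks with a midpoint in a gene body were summed per gene. The step between the values corresponds to about 29.6 M mapped reads (M, 1e6) in the spleen library and 38.1 M in the LI library. All 8 Treg and CD4 T cell markers, among them Foxp3, Il2ra and Ctla4, carried peaks. Of the markers of other cells, 1 of 2 CD8 T cell genes, 3 of 6 B cell genes, 1 of 6 myeloid genes and 3 of 7 intestinal epithelial genes carried a peak. The summed epithelial list was 56.0 RPKM in spleen and 92.4 RPKM in LI, with Krt8, Krt20, Cdh1 and Cdx2 without a peak. The summed B cell list was 61.2 RPKM in spleen and 52.6 RPKM in LI, a direction set by Cd79a (48.0 in spleen and 29.3 in LI). Cd79b (9.10 and 13.5) and Pax5 (4.12 and 9.76), with 1 peak each, were higher in LI. Ms4a1 and Ebf1 were among the B cell genes without a peak. Whether a difference between the libraries came from less mark per cell or from fewer marked cells cannot be told apart in such bulk samples.

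H3K36me3 peaks lay on most remodeller genes, and only a few genes differed between them. Of the 44 genes, 40 carried at least 1 of 1197 peaks, and all 40 reached 20 RPKM summed over both libraries. The other 4 genes, Smarca1, Chd5, Actl6b and Arid3c, had no peak, which is 9.09% of the set against 54.3% of all protein-coding genes. Arid3a was past 1.5-fold higher in LI and Baz2b past 1.5-fold higher in spleen. Over the 9455 protein-coding genes with at least 20 RPKM the same calls were made for 9.0% and 5.59%, so 1 gene of 40 in each direction (2.5%) lies below the background. Both genes were also past 2-fold, against 3.22% and 1.83% of all genes. Among genes with at least 200 RPKM, 1 of 33 remodellers was called in each direction, against 4.94% of 4166 genes in LI and 3.0% in spleen.

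Most of the remaining genes lay close to equality. Within 1.2-fold of equal signal were 31 of 40 remodellers (77.5%), compared with 58.7% of all genes tested, and 25 of 33 with at least 200 RPKM, compared with 68.0%. The remodellers also had larger sums over both libraries, a median of 601.4 RPKM against 165.5 RPKM over all genes tested. Their median counting error of the log2 ratio was smaller, 0.085 against 0.158, and 0.078 against 0.112 with at least 200 RPKM. The part of this in the shares near equality and in the calls past 1.5-fold was not tested. The median log2 ratio of LI over spleen was -0.05 for the remodellers and 0.00 for all genes tested. Signal was higher in LI in 13 of 40 genes (32.5%) against a background of 50.7%, and in 504 of 1197 peaks (42.1%) against 48.9%. This count moved with the settings: it was 18 of 40 with the deposited values unscaled (56.6% of all genes) and 23 of 40 with only the strongest peak of each gene (57.0% of all genes). After each peak was centred on the median ratio of peaks with like GC content, 18 of 40 remodellers (45%) and 46.1% of all genes were higher in LI. The counting interval lay above 0 in 4 genes (17.2% of all genes) and below 0 in 10 genes (14.7% of all genes). The 4 genes were Arid3a, Chd7, Smarcal1 and Smarca4, and the 10 were Baz2b, Arid4b, Ino80, Arid1a, Chd1, Smarca5, Arid4a, Smarcc1, Chd2 and Chd9.

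**Figure D1:**
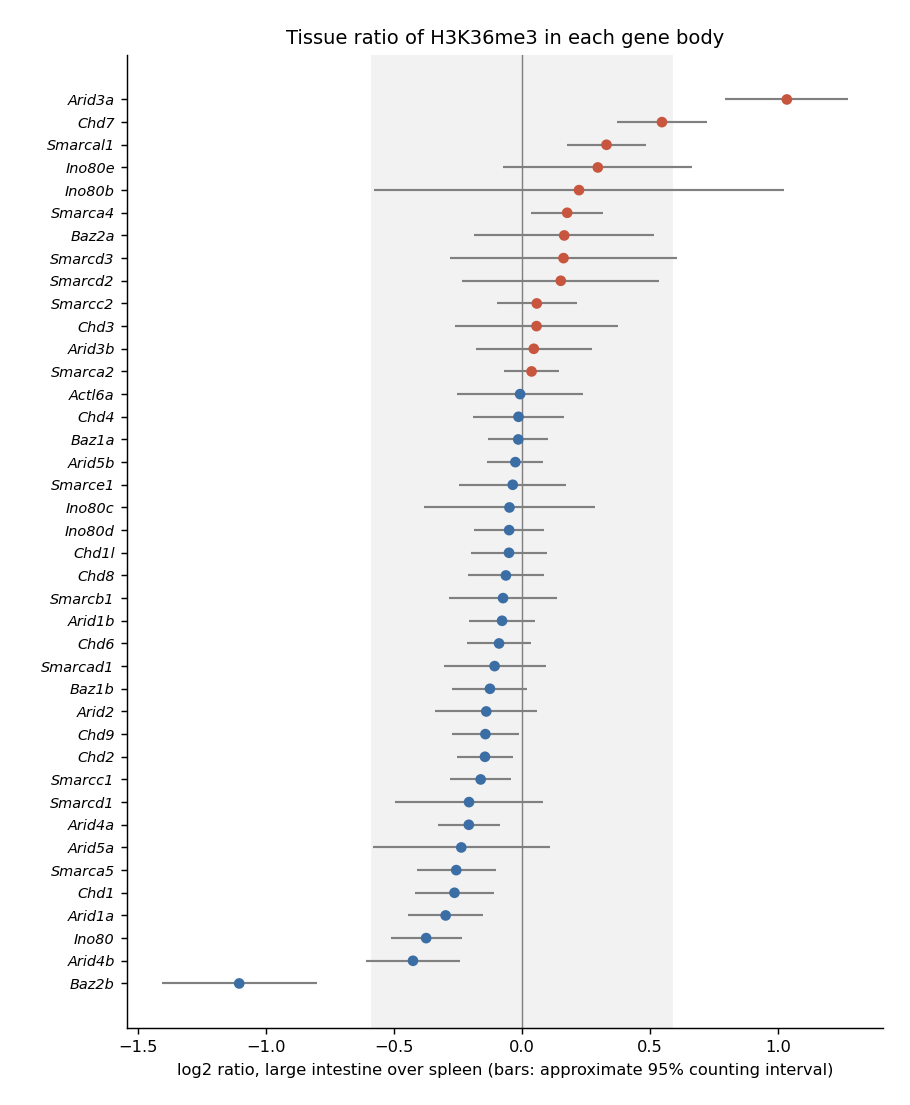
Log2 ratio of summed H3K36me3 signal, LI over spleen (x axis), for the 40 remodeller genes with a peak (y axis, ordered by ratio). Points are 1 library per tissue, red above and blue below 0, bars are approximate 95% counting intervals with reads taken to cover 200 bp, and the grey band marks less than 1.5-fold. Arid3a (1.04) and Baz2b (-1.11) lie outside the band.

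Levels differed far more between the genes than between the tissues. To compare genes, the signal was weighted by peak length and divided by the length of the gene body, which gives a mean RPKM over the body. Chd3, the ATPase of a NuRD variant, had the highest level with 34.0 in spleen and 31.8 in LI, above 99.1% and 98.3% of the genes tested. Arid5a, an ARID protein known for stabilising cytokine mRNA, followed with 27.5 in spleen and 25.2 in LI. Next in order in spleen were Smarcd2, an accessory BAF subunit, with 25.9 in spleen and 28.6 in LI, and Chd4, the main NuRD ATPase, with 25.1 and 23.2. Smarcd2 and Chd4 were thus ordered alike in both libraries, but Smarcd2 stood above Arid5a in LI and below it in spleen. At the lower end, Arid1b had 1.95 in spleen and 1.88 in LI, and Arid4b had 2.05 and 1.65. Baz2b was the lowest with 0.37 and 0.18. The median of the 40 genes was 7.31 in spleen and 8.12 in LI, compared with 4.82 and 4.94 over all genes tested.

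**Figure D2:**
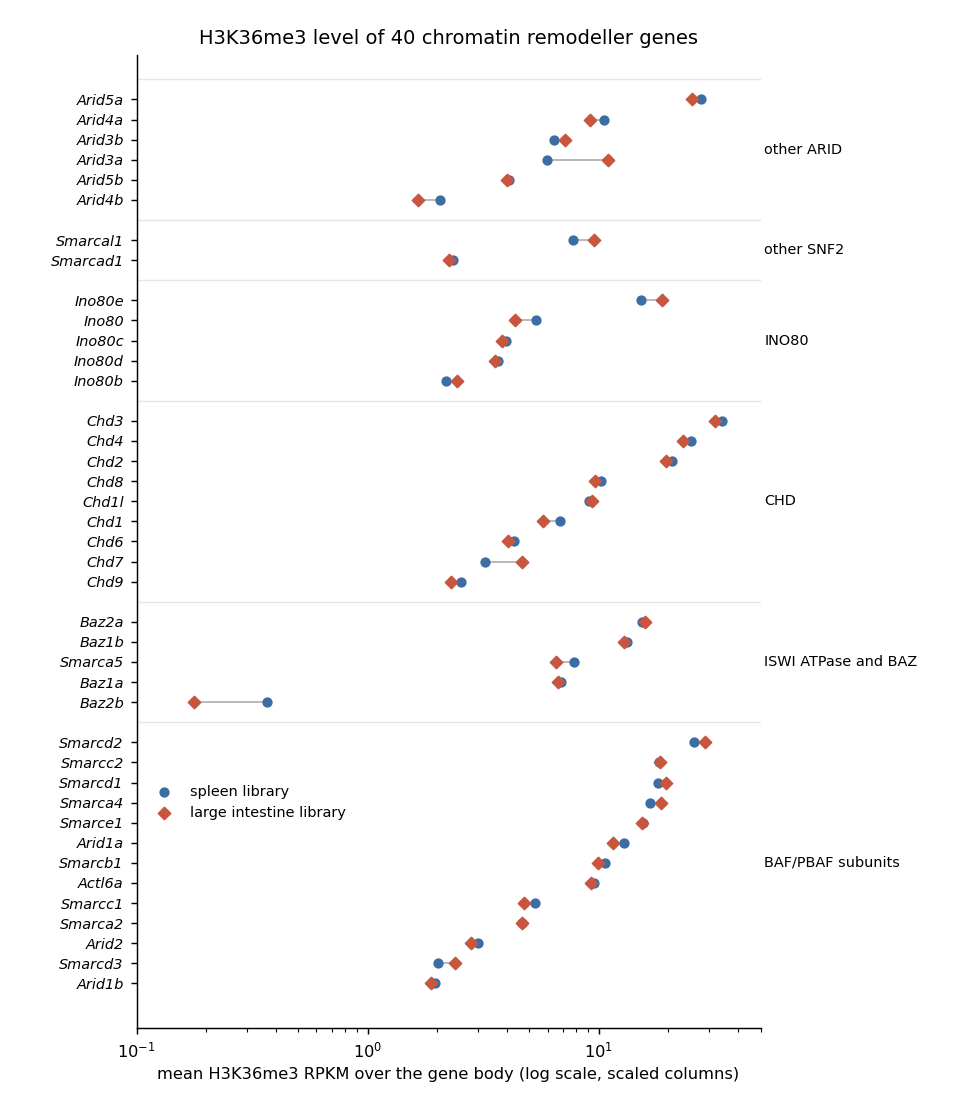
Mean H3K36me3 RPKM over the gene body (x axis, log scale) in the spleen library (blue circles) and the LI library (red diamonds) for the 40 remodeller genes, grouped by family, 1 library per tissue. The symbols of a gene lie close together, while genes range from 0.37 (Baz2b) to 34.0 (Chd3) in spleen.

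Baz2b, a bromodomain protein that pairs with ISWI ATPases, was the remodeller with the largest excess in spleen. Its peaks summed to 268.3 RPKM in spleen and 124.4 RPKM in LI, a log2 ratio of -1.11 (interval -1.41 to -0.80), or 2.15-fold higher in spleen. Only 131 of the 9455 genes had a lower ratio. All 25 peaks of the gene were higher in spleen. Single peaks ran from 6.10 over a median of 11.3 to 15.5 RPKM in spleen, and from 1.18 over 4.59 to 9.74 RPKM in LI, so that 20 of 25 LI values were below the lowest spleen value. Peaks were called per tissue and then merged, so a weak peak could enter through the tissue where it was higher. Counts of peaks by direction, here and for the genes below, therefore describe a gene and give no further support to its ratio. The ratio of Baz2b was -1.08 after GC centring and -1.04 with peaks weighted by length. It was -0.35 when only the strongest peak of each gene was used. Its longest peak was 1.39 kb, and the peaks covered 3.27% of the body. March7, which starts 0.048 kb from Baz2b, had 260.6 RPKM in spleen and 224.9 RPKM in LI and a log2 ratio of -0.21 (interval -0.43 to 0.01).

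The body of Baz2b, chr2:59899363-60209839 on the minus strand of mm10 (310.5 kb), was marked almost entirely toward its 3' end. A stretch of 200.1 kb, chr2:60006195-60206325, held no peak. The stretch ended 7 bases before the annotated start codon, and 24 of 25 peaks lay after that codon, which is 203.7 kb from the 5' end of the gene. That 5' end belongs to a processed transcript: of the coding transcripts, one begins 84.1 kb into the gene and the one used here for the codon, Baz2b-201, begins at the codon itself. The peak at the codon measured 12.3 RPKM in spleen and 5.69 RPKM in LI. The sequences printed, 5' to 3' on the strand of the gene from GRCm38.p6, are the first coding bases, where the marked stretch begins (chr2:60006043-60006187, start codon in capitals), and the intronic peak with the largest difference of the 8 Baz2b peaks up to 300 bases long that overlapped no exon (chr2:59965645-59965844, CG dinucleotides in capitals). The second one was chosen after its values were seen.
Baz2b first coding bases: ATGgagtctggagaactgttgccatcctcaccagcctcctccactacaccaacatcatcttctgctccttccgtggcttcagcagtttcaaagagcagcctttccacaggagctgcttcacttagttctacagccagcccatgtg
Baz2b intronic peak: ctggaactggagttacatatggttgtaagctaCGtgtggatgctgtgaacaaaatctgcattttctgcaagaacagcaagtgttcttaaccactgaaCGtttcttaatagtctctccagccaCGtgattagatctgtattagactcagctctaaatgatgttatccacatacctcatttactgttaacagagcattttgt
This intronic peak, 244.1 kb from the 5' end, had 9.77 RPKM in spleen and 1.60 RPKM in LI, a log2 ratio of -2.29. Its GC content was 39% and it held 3 CG, while peaks of 200 to 300 bases held a median of 2 CG and 87.9% of 35190 such peaks had at least 1 CG.

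Arid3a, a DNA-binding ARID protein first described in B cells, was the gene of the set with the largest excess in LI. It lies at chr10:79927043-79955018 on the plus strand. The sum was 134.7 RPKM in spleen and 276.6 RPKM in LI, a log2 ratio of 1.04 (interval 0.79 to 1.28), or 2.05-fold higher in LI, and 283 of the 9455 genes had a higher ratio. Of its 16 peaks, 15 were higher in LI. Spleen peaks ran from 4.25 over a median of 7.00 to 15.3 RPKM, and LI peaks from 6.69 over 18.2 to 26.5 RPKM. In 10 of 16 peaks the LI value lay above the highest spleen value. The exception was the peak at the 5' end, with 8.74 RPKM in spleen and 6.69 RPKM in LI. The peaks of Arid3a had the highest GC content of the set (57.6%), and the log2 ratio was 0.77 after GC centring and 0.88 with peaks weighted by length. Wdr18, the next gene downstream, had 36.9 RPKM in spleen and 39.7 RPKM in LI. Of the B cell markers with a peak, Cd79b and Pax5 were higher in LI and Cd79a was lower, and their part in the Arid3a difference was not tested.

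The largest difference among the 4 Arid3a peaks up to 300 bases long that overlapped no exon was at chr10:79939196-79939425, 12.3 kb into the gene. There 4.25 RPKM in spleen stood against 19.0 RPKM in LI, a log2 ratio of 2.04. Its sequence is printed as the counterpart to the Baz2b peak, on the plus strand of GRCm38.p6, and any CG would stand in capitals.
Arid3a intronic peak: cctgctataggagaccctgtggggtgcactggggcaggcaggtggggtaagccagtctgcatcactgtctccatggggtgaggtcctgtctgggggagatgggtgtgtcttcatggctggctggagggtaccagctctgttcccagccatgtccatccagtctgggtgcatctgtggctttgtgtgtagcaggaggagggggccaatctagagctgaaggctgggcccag
It had a GC content of 60.9% and no CG, as had 12.1% of the peaks of 200 to 300 bases.

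Chd7, a CHD ATPase that acts at enhancers, was nearest to the 1.5-fold mark in LI without reaching it. Its peaks added up to 265.0 RPKM in spleen against 387.4 RPKM in LI, and 22 of 26 peaks were higher in LI. The log2 ratio was 0.55 (interval 0.37 to 0.72), and 0.48 after GC centring. With the deposited values left unscaled it was 0.59, past 1.5-fold. Rab2a, the nearest gene upstream, had 326.6 RPKM in spleen and 307.1 RPKM in LI. The peaks of Chd7 ran from 2.77 to 24.3 RPKM in spleen and from 3.37 to 37.9 RPKM in LI and thus overlapped widely. Baz2b had 1 peak before its start codon and Chd7 had none: the gene spans chr4:8690406-8867659 on the plus strand, the codon is 61.1 kb from its 5' end, and the first peak began 98 bases after it. The first coding bases (chr4:8751505-8751649, start codon in capitals) are shown with an intronic peak (CG in capitals).
Chd7 first coding bases: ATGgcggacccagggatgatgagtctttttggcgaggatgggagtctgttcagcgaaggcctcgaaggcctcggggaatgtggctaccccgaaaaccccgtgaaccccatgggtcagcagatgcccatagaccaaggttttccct
Chd7 intronic peak: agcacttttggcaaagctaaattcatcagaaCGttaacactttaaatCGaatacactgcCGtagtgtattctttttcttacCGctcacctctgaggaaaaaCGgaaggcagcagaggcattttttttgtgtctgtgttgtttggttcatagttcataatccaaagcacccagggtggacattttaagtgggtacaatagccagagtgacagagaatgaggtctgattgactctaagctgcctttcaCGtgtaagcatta
The intronic peak, chr4:8824343-8824601, had the largest difference toward LI of the 6 Chd7 peaks up to 300 bases long that overlapped no exon at any base, and measured 2.77 RPKM in spleen and 9.69 RPKM in LI, a log2 ratio of 1.64. It held 6 CG, and 14.9% of peaks of 200 to 300 bases held at least as many.

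**Figure D3:**
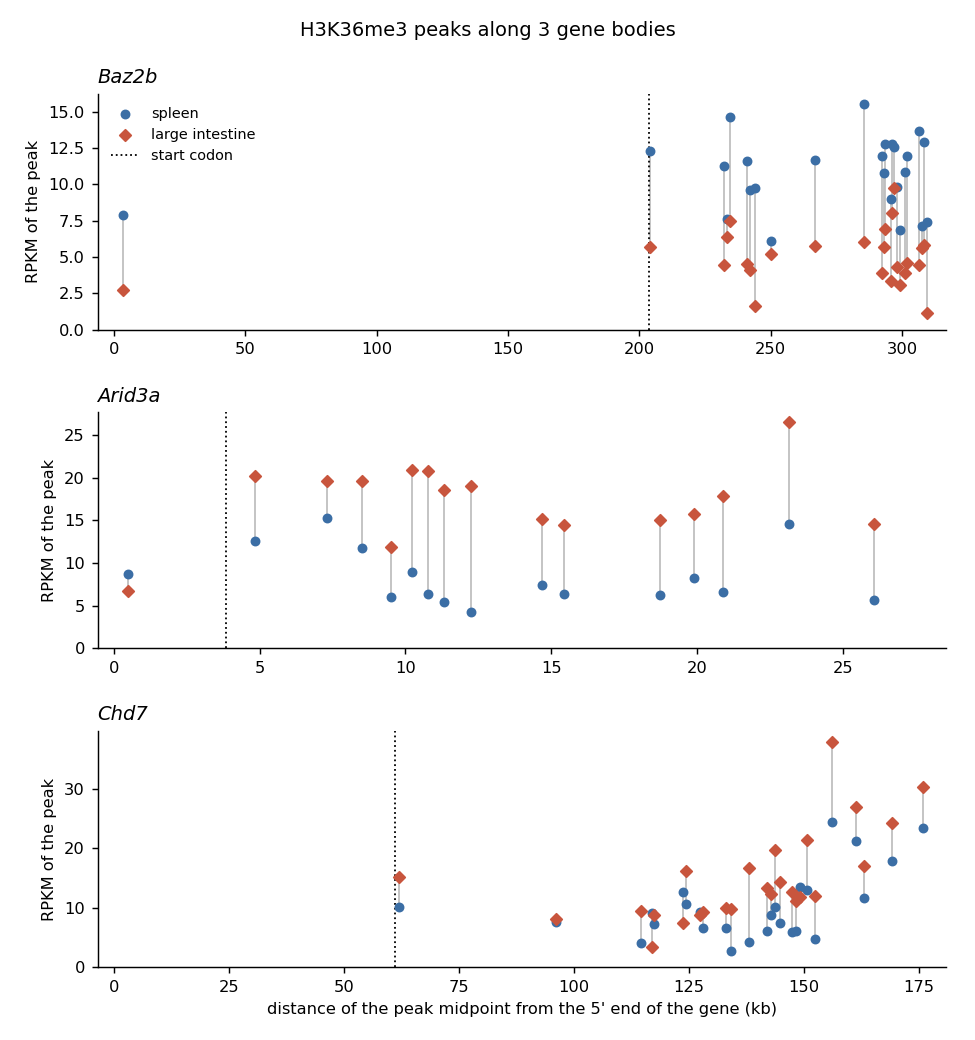
Peak values in RPKM (y axis) against the distance of the peak midpoint from the 5' end of the gene in kb (x axis) for Baz2b, Arid3a and Chd7, with spleen as blue circles, LI as red diamonds and the start codon as a dotted line. All 25 Baz2b pairs have spleen on top, 15 of 16 Arid3a pairs have LI on top, and the stretch before the codon is nearly empty in Baz2b and Chd7.

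Lower signal before than after a distant start codon was seen in most remodeller genes that had one. In 13 of them at least 10 kb of the body lay between the annotated 5' end of the gene, which can belong to a non-coding transcript, and the start codon of a principal transcript. The mean RPKM over the body was lower before the codon than after it in 12 of 13 genes (92.3%) in each library. This was near the share of all 1519 such genes, 94.5% in spleen and 94.5% in LI. No peak lay before the codon in 7 of 13 genes (53.8%) against 41.8% of all such genes. These 7 included Ino80 (0 of 57 peaks), Smarca2 (0 of 85 peaks) and Smarcc1 (0 of 76 peaks). Baz2a had most of its peaks, 9 of 11, before the codon, but with 1.55 RPKM before and 28.0 RPKM after it in LI. Ino80d, an INO80 subunit, was the exception, with 6.14 RPKM before and 3.27 RPKM after the codon in spleen and 5.90 and 3.17 RPKM in LI.

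Signal increased along the body in both tissues. Over the 39 remodellers of at least 5 kb, the body was cut into 10 equal bins, and the mean RPKM went from 1.44 in bin 1 to 13.3 in bin 9 in spleen, and from 1.34 to 13.8 in LI. In bin 10 it was 12.8 in spleen and 13.4 in LI. The part of the body after its midpoint held a median of 58.5% of the summed signal in each library, compared with 65.1% in spleen and 65.8% in LI over all genes tested. For Arid5a and Smarcd3 this share was 100%, and for Ino80d it was 0%.

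**Figure D4:**
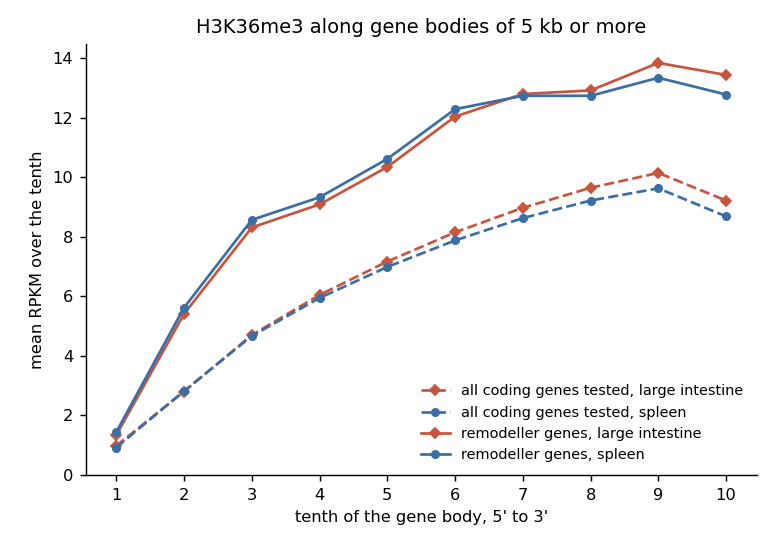
Mean H3K36me3 RPKM (y axis) in 10 equal bins of the gene body from 5' to 3' (x axis) for the 39 remodeller genes of at least 5 kb (solid lines) and all genes tested of that length (dashed lines), spleen in blue and LI in red, 1 library each. Both libraries follow a like course, and the remodellers go from 1.44 to 13.3 RPKM in spleen between bins 1 and 9.

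Whether the tissue ratio was even along a gene could be compared in 34 remodellers with at least 20 RPKM on each side of the midpoint. In 2 of them the ratio was past 1.5-fold higher in the 3' part (8.76% of 6110 genes) and in 0 it was past 1.5-fold lower (5.73%). These were Ino80c, whose 3' part held 77.5% of its signal in spleen and 89.7% in LI, with a difference of 1.31 on the log2 scale (interval 0.38 to 2.24), and Smarcd1, with 35.1% and 45.8% and a difference of 0.63 (interval 0.13 to 1.13). Chd2 differed by 0.20 (interval 0.01 to 0.40). For the other 31 genes the counting interval of the difference held 0. The interval thus lay above 0 in 3 of 34 remodellers and below 0 in 0, beside 419 and 164 of the 6110 genes.

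In the BAF and PBAF complexes, which carry the ATPases Smarca4 (BRG1) or Smarca2 (BRM), 13 of 14 genes had peaks, 5 were higher in LI, 8 were higher in spleen, and 0 were past 1.5-fold. Their median log2 ratio was -0.04, and 0.01 with unscaled values. Smarca4, chr9:21616169-21704230, had 235.4 RPKM in spleen and 266.1 RPKM in LI, with 12 of 15 peaks higher in LI and a log2 ratio of 0.18 (interval 0.04 to 0.32). Smarca2, chr19:26605050-26778322, had 907.3 RPKM and 931.1 RPKM, with 41 of 85 peaks higher in LI and a log2 ratio of 0.04 (interval -0.07 to 0.15). The ratios of these alternative ATPases differed by 0.14 (interval -0.04 to 0.32), so no difference between them could be seen beyond counting error. Their levels over the body were 16.7 in spleen and 18.5 in LI for Smarca4, and 4.66 in each library for Smarca2.

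The ARID subunits decide which form of the complex is built: Arid1a and Arid1b are alternatives in BAF, and Arid2 belongs to PBAF. Arid1a, chr4:133679008-133756769, was the BAF gene with the lowest ratio. It had 470.7 RPKM in spleen and 382.6 RPKM in LI, a log2 ratio of -0.30 (interval -0.45 to -0.15), and 7 of 39 peaks were higher in LI. Arid1b, chr17:4994332-5347656, had 683.6 RPKM and 647.7 RPKM, a log2 ratio of -0.08 (interval -0.21 to 0.05), and 22 of 55 peaks higher in LI. For Arid2, chr15:96287518-96404992, the sums were 393.2 RPKM and 356.8 RPKM, the log2 ratio was -0.14 (interval -0.34 to 0.06), and 17 of 37 peaks were higher in LI. Arid1b exceeded Arid1a in its ratio by 0.22 (interval 0.02 to 0.42), while after GC centring Arid1a was at -0.28 and Arid1b at -0.19. Over the body Arid1a had 12.8 RPKM in spleen and 11.5 in LI, several times the level of Arid1b.

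Among the core scaffold proteins, Smarcc1 had a log2 ratio of -0.16 (interval -0.28 to -0.04) and its paralogue Smarcc2 one of 0.06 (interval -0.10 to 0.21), a difference of 0.22 (interval 0.02 to 0.42). After GC centring they were -0.03 and 0.06. Smarcb1 (-0.07), Smarce1 (-0.04) and Actl6a (-0.01), an actin-related subunit, were within their counting intervals of 0. The accessory subunits Smarcd1, Smarcd2 and Smarcd3 had log2 ratios of -0.21, 0.15 and 0.16, each with an interval holding 0, and Smarcd1 turned to 0.11 when peaks were weighted by length. Of the Smarcd1 and Smarcd3 peaks, 2 each also lay in the body of another coding gene. Actl6b, the paralogue of Actl6a known from neurons, had no peak.

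The ISWI group had 5 of 6 genes with peaks, 1 higher in LI and 4 in spleen, with a median log2 ratio of -0.13 that turned to 0.05 after GC centring. Smarca5 (SNF2H), the ATPase that spaces nucleosomes, had 349.8 RPKM in spleen and 292.6 RPKM in LI, with 7 of 32 peaks higher in LI. Its log2 ratio was -0.26 (interval -0.41 to -0.10), but 0.05 after GC centring. The gene is at chr8:80698507-80739497, and its peaks had the lowest GC content of the set (38.8%). Smarca1 (SNF2L), the other ISWI ATPase, chrX:47809368-47892974, had no peak in either library. The BAZ proteins give ISWI complexes their targets. Baz1a (ACF1) had a log2 ratio of -0.01, Baz1b (WSTF) one of -0.13 and Baz2a (TIP5), which silences rDNA, one of 0.17 (interval -0.19 to 0.52). Baz2a and Baz2b were thus 1.27 apart (interval 0.81 to 1.74), the widest gap between paralogues, and in spleen 15.4 RPKM over the body of Baz2a stood against 0.37 for Baz2b.

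In the CHD family 9 of 10 genes had peaks, 2 were higher in LI and 7 in spleen, with a median log2 ratio of -0.06. Chd1 and Chd2 follow elongating polymerase. Chd1, chr17:15704967-15772610, had 429.9 RPKM in spleen and 357.9 RPKM in LI, a log2 ratio of -0.26 (interval -0.42 to -0.11), and 9 of 38 peaks higher in LI. After GC centring its log2 ratio was -0.03. Chd2, chr7:73426638-73541830, had 464.6 RPKM and 420.2 RPKM, a log2 ratio of -0.14 (interval -0.25 to -0.04), 0.02 after GC centring, and 9 of 31 peaks higher in LI. Peaks covered 91.1% of the Chd2 body.

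For the NuRD ATPases the counting intervals held 0. Chd3, chr11:69343273-69369406, had 76.1 RPKM in spleen and 79.1 RPKM in LI over 4 peaks, 1 of them higher in LI, with a log2 ratio of 0.06 (interval -0.26 to 0.38), or -0.09 with peaks weighted by length. Chd4, chr6:125095981-125130591, had 193.7 RPKM and 191.9 RPKM, 4 of 10 peaks higher in LI, and a log2 ratio of -0.01 (interval -0.19 to 0.16). Chd5, chr4:152338651-152390194, a NuRD ATPase known from neurons and testis, had no peak.

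Chd6 to Chd9 form a CHD subfamily of their own. Chd6, chr2:160946978-161109075, had 676.3 RPKM in spleen and 635.5 RPKM in LI, with 27 of 64 peaks higher in LI and a log2 ratio of -0.09 (interval -0.22 to 0.04). For Chd8, chr14:52198151-52257780, a repressor of Wnt target genes, 205.2 RPKM and 196.4 RPKM were found, with 3 of 13 peaks higher in LI and a log2 ratio of -0.06 (interval -0.21 to 0.09). Chd9, chr8:90828352-91054516, had 736.5 RPKM and 666.9 RPKM, 23 of 71 peaks higher in LI, and a log2 ratio of -0.14 (interval -0.27 to -0.01). The ratio of Chd7 exceeded that of Chd9, which was at -0.02 after GC centring, by 0.69 (interval 0.47 to 0.91). Chd1l (ALC1), which is recruited by poly-ADP-ribose, had a log2 ratio of -0.05 (interval -0.20 to 0.10).

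All 5 INO80 genes had peaks, 2 higher in LI and 3 in spleen, with a median log2 ratio of -0.05 that turned to 0.03 after GC centring. Ino80, the ATPase that moves H2A.Z nucleosomes, had 638.9 RPKM in spleen and 492.6 RPKM in LI, and 9 of 57 peaks were higher in LI. Its log2 ratio was -0.37 (interval -0.51 to -0.24), and -0.22 after GC centring. The gene lies at chr2:119373042-119477687. The subunits Ino80b, Ino80c, Ino80d and Ino80e had log2 ratios of 0.22, -0.05, -0.05 and 0.30, each with an interval holding 0. Ino80b and Ino80e were the genes with the lowest sums, 25.7 and 23.4 RPKM in spleen.

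Smarcal1, an annealing helicase at stalled replication forks, had 353.8 RPKM in spleen and 445.0 RPKM in LI, with 28 of 33 peaks higher in LI. Its log2 ratio was 0.33 (interval 0.18 to 0.48), and 0.25 after GC centring. Smarcad1, which acts in heterochromatin and DNA end resection, had a log2 ratio of -0.11 (interval -0.31 to 0.09).

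The remaining ARID proteins bind DNA outside the BAF complex, and 6 of 7 had peaks, 2 higher in LI and 4 in spleen, with a median log2 ratio of -0.12. Arid4b and Arid4a, subunits of the Sin3 deacetylase complex, were both higher in spleen. Arid4b had 387.3 RPKM in spleen and 288.1 RPKM in LI, a log2 ratio of -0.43 (interval -0.61 to -0.24), -0.23 after GC centring, with 9 of 35 peaks higher in LI. Arid4a had 493.4 RPKM and 427.1 RPKM, a log2 ratio of -0.21 (interval -0.33 to -0.09), -0.12 after GC centring. Arid3b, the paralogue of Arid3a, had a log2 ratio of 0.05, which Arid3a exceeded by 0.99 (interval 0.66 to 1.32), and Arid3c had no peak. Arid5b had the largest sum of peak values in spleen, 1004.7 RPKM over 104 peaks, with 986.8 RPKM in LI and a log2 ratio of -0.03 (interval -0.14 to 0.08). Such a sum adds a mean value per peak, so it grows with the number of peaks and leaves out their length. Over the body, the level of Arid5b was below the median of the remodellers in each library. Arid5a had a log2 ratio of -0.24 (interval -0.58 to 0.11).

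The other subunits of the same complexes and further SNF2-like genes were counted in the same way. Of 65 such partner genes, 59 were tested, 25 were higher in LI and 34 in spleen (50.7% of all genes were higher in LI), and the median log2 ratio was -0.06. Past 1.5-fold were 1 gene in LI and 1 in spleen, against 9.0% and 5.59% of all genes. Actr8, an actin-related INO80 subunit, had 60.1 RPKM in spleen and 102.0 RPKM in LI, a log2 ratio of 0.76 (interval 0.35 to 1.17), but 0.25 and no longer past 1.5-fold with peaks weighted by length. Hells (LSH), an SNF2-like protein needed for DNA methylation, had 44.8 RPKM and 23.9 RPKM, a log2 ratio of -0.89 (interval -1.68 to -0.11).

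The remodellers were long genes that were broadly marked. Their median length was 59.2 kb with 25.5 peaks, compared with 24.7 kb and 7 peaks over all genes tested. Peaks covered a median of 57.3% of the body (38.3% over all genes), from 3.27% in Baz2b to 93.3% in Smarcd2. The first peak lay a median of 6.08% of the body from the 5' end, against 18.6%, or 3.0 kb against 3.6 kb. The contrast was smaller among genes with at least 200 RPKM. There the first peak lay at 4.77% against 10.8%, and peaks covered 52.1% of the body against 42.5%. Of the 1197 peaks, 172 (14.4%) had their midpoint in an exon of the gene, against 20.1% of peaks in all genes tested. The others had their midpoint in an intron, but longer ones can also overlap exons. Peak GC content had a median of 46.2% against 48.1%.

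The tissue ratio followed the GC content of the peaks. Of the 20 genes with the lowest GC content (38.8% to 46.1%), 1 was higher in LI and the median log2 ratio was -0.13. Of the 20 genes with the highest (46.3% to 57.6%), 12 were higher in LI and the median was 0.06. After GC centring 10 and 8 genes were higher in LI. Across the 40 genes, which share the same pair of libraries, Pearson's r between GC content and log2 ratio was 0.55 and Spearman's rho 0.58. Over all 9455 genes these were 0.33 and 0.42. Between the log10 length of the gene and the log2 ratio, Pearson's r was -0.35 over the 40 genes and -0.08 over all genes. Baz2b (45.1% GC), Arid3a and Chd7 (48.4% GC) kept their direction after centring. The part of GC content in these ratios beyond that centring was not tested.

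**Figure D5:**
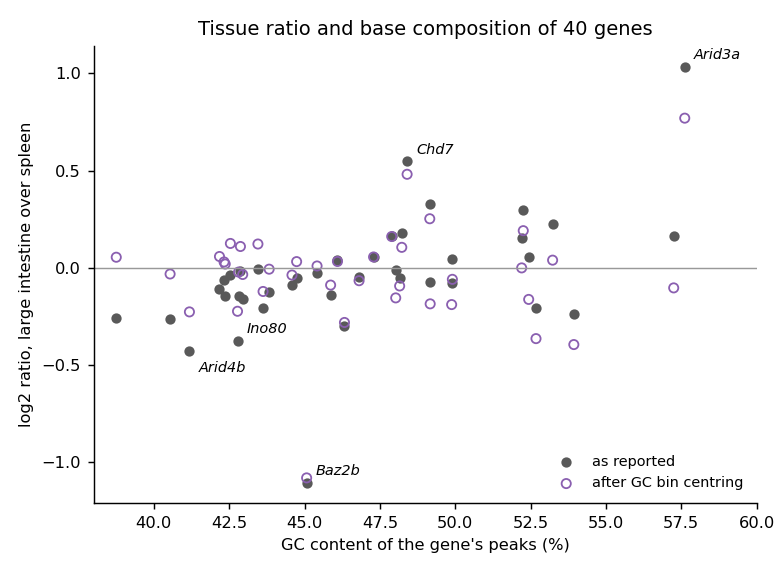
Log2 ratio of LI over spleen (y axis) against the GC content of the gene's peaks in percent (x axis) for the 40 remodeller genes, as reported (filled) and after each peak was centred on the median of its GC bin (open). Low-GC genes lie mostly below 0 before centring (1 of 20 higher in LI) and around 0 after it (10 of 20), while Baz2b, Arid3a and Chd7 stay apart.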

How the data were processed

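H3K36me3 ChIP-seq of splenic and intestinal Treg cells was analysed, with 1 library each. The authors aligned 75-nt single-end reads to mm10 (Bowtie2), called peaks per tissue with MACS2 against input, merged them with bedtools and deposited the mean RPKM coverage of each merged peak; the table is named as raw counts, but its values are not whole. Here, after scaling, values of peaks with their midpoint in a gene body were summed, and log2((LI + 0.5)/(spleen + 0.5)) was taken where both libraries together reached 20 RPKM, which understates changes of low genes. Depth came from the step of the values, the worth of 1 read in a coverage bin taken as 20 bp (98.8% of 574 spleen and 99.8% of 564 LI values in bin-aligned peaks were whole multiples within 0.05). Read extension is not given in the sources used here. Counting intervals (95%) take each read to cover 200 bp and reads to be independent. They were tested on simulated data drawn under these same assumptions, which could not test the assumptions themselves. Start codons are the most upstream of APPRIS principal transcripts. Sequences and GC content came from GRCm38.p6 (RefSeq), and 0 of 21 chromosomes had a peak past its end. Members, gene lists and the rule for named genes (members past 1.5-fold, the ATPases and the BAF ARID subunits in full, partners only past 1.5-fold) were chosen with earlier results of these data known. Analyses ran in Python 3.11.15 with numpy 2.4.6, pandas 2.3.3 and scipy 1.17.1.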

Additional observations from a re-analysis of the deposited data

How the results depend on the processing

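With 1 library per tissue no replicate could be left out, and depth limits low genes such as Ino80b. No paired analysis was possible because each tissue has a single library and no test was run. The ratios of 12 of the 40 genes kept their sign under every alternative that gave a value, and 28 changed sign under at least 1. Arid3a stayed past 1.5-fold in all 13 alternatives (log2 ratio 0.77 to 1.08) and Baz2b in 11 of 12 (-1.15 to -0.35). With the deposited values unscaled, 2 of 40 genes were past 1.5-fold higher in LI (10.1% of all genes), the second being Chd7. The median log2 ratio was then -0.0050. With only the strongest peak of each gene, 23 of 40 genes were higher in LI (57.0% of all genes), 2 were past 1.5-fold in LI and 0 in spleen, and the median was 0.031. With a filter of 200 RPKM, 8 of 33 genes (24.2%) were higher in LI, against 45.4% of all genes. The genes left out by this filter were Smarcd2, Smarcd3, Chd3, Ino80b and Ino80e, higher in LI, and Smarcd1 and Arid5a, higher in spleen. With only peaks of at least 1 kb, 0 of 38 genes were past 1.5-fold in spleen (1.91% of all genes). The only such peak of Baz2b leaves it under the 20 RPKM filter. Weighting by peak length moved the median share of spleen signal in the 3' part to 74.6% (80.1% over all genes tested). It also took Actr8 below 1.5-fold. The causes of the other shifts were not tested. With reads taken to cover 75 bp, the counting interval lay above 0 in 5 genes and below 0 in 15. The shares over all genes were counted only with 200 bp (17.2% and 14.7%), so these counts have no background beside them.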
